A study of Homo sapiens with 6 samples.

Results

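The genes described here encode the BCL2 family, the proteins that decide at the mitochondrion whether a cell enters apoptosis. The 10 members were taken by symbol: BCL2, BCL2L1 and MCL1, which protect the cell, BAX and BAK1, which permeabilise the outer mitochondrial membrane, and BCL2L11, BBC3, PMAIP1, BID and BMF, which promote death through a single BH3 helix. All probe sets that the platform annotation assigns to 1 of these symbols and to no other were used. There were 30 such probe sets, representing 9 genes, among 54613 probe sets other than controls, which represent 19775 genes. BBC3 had 0 probe sets with its symbol alone, since the only one annotated to it here names further genes, and no value is given for it. The pro-survival members held 14 probe sets, the effectors 3 and the BH3-only members 13.

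The samples were K562 cells, an established line from a chronic myelogenous leukaemia that carries the BCR-ABL1 fusion kinase and lacks functional p53. One group was incubated for 3 h with 25 nM CA (cortistatin A), which blocks CDK8 and CDK19, the kinases of the Mediator complex, and the other for 3 h with the vehicle DMSO. Each had 3 wells, plated at 500000 to 800000 cells per mL and read on 1 Human U133 Plus 2.0 array per well, and the comparison asks which transcripts differ after exposure to the inhibitor. Only 1 cell line was used and no source says that the wells came from separate cultures, so p-values measure the spread between these wells, which may be technical.

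Apoptosis through the mitochondrion is set by binding among family members rather than by any one of them. The pro-survival proteins hold BAX and BAK1 inactive and sequester BH3-only proteins, and the BH3-only proteins carry stress signals by occupying the groove of the pro-survival proteins or by activating BAX and BAK1 directly. In cells driven by BCR-ABL1, signalling through STAT5 is known to sustain BCL2L1 and MCL1, while signalling through ERK and AKT keeps BCL2L11 low, and kinase inhibition in such cells is known to raise BCL2L11. The transcripts and proteins of MCL1 and PMAIP1 turn over quickly.

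Values below are log2 signals on the RMA scale, which sets all arrays to a common distribution, and a change is CA minus DMSO. Only the brighter probe sets entered the test, those averaging 3.49 or more across the 6 arrays. "Called" means an adjusted p under 0.05 by limma, with Benjamini-Hochberg adjustment over all 27307 tested probe sets. A probe set is apart when all 3 CA arrays lie on 1 side of all 3 DMSO arrays. Of the 30 family probe sets, 26 passed the brightness filter, and the other 4 (3 of BCL2 and 1 of BCL2L11) are given as values only. Intervals are 95% confidence intervals from the model, and the median standard error of a change over all tested probe sets was 0.066. Probe sets of a gene were read from the same RNA samples and may share transcripts, so they are not replicates of each other.

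No family probe set was called by limma: 0 of 26, against 0.0952% of all tested probe sets (0.0513% higher and 0.0439% lower). Adjusted p-values for the family ran from 0.116 to 0.994. The members were chosen with earlier results of these data known, so the counts below are no test of the family. At an unadjusted p under 0.05 there were 8 family probe sets, 7 higher and 1 lower in CA, where the shares over all tested probe sets were 9.31% in either direction, 4.55% higher and 4.76% lower. Of the 26, 9 were apart, against 15.6% of all tested, with 8 on the higher side, against 7.09%, and 1 on the lower side, against 8.52%. The 9 were 3 of BCL2L11, 2 of BCL2L1, 2 of MCL1, 1 of PMAIP1 and 1 of BID. Of these, MCL1 on 227175_at passed the filter only through its CA arrays (mean 3.65, against 3.46 with DMSO). The median change over the 26 was 0.06, against -0.01 over all tested probe sets. When limma let the prior variance depend on signal (a variance trend), 4 of the 26 were called, all higher in CA, against 1.04% of all tested and 0.659% on the higher side. These were BCL2L11 on 225606_at (adjusted p = 0.0168) and 1558143_a_at (0.0231), PMAIP1 on 204285_s_at (0.0111) and MCL1 on 200798_x_at (0.0291). The PMAIP1 and MCL1 ones are shared probe sets, here those with names ending in _s_at or _x_at.

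**Figure D1:**
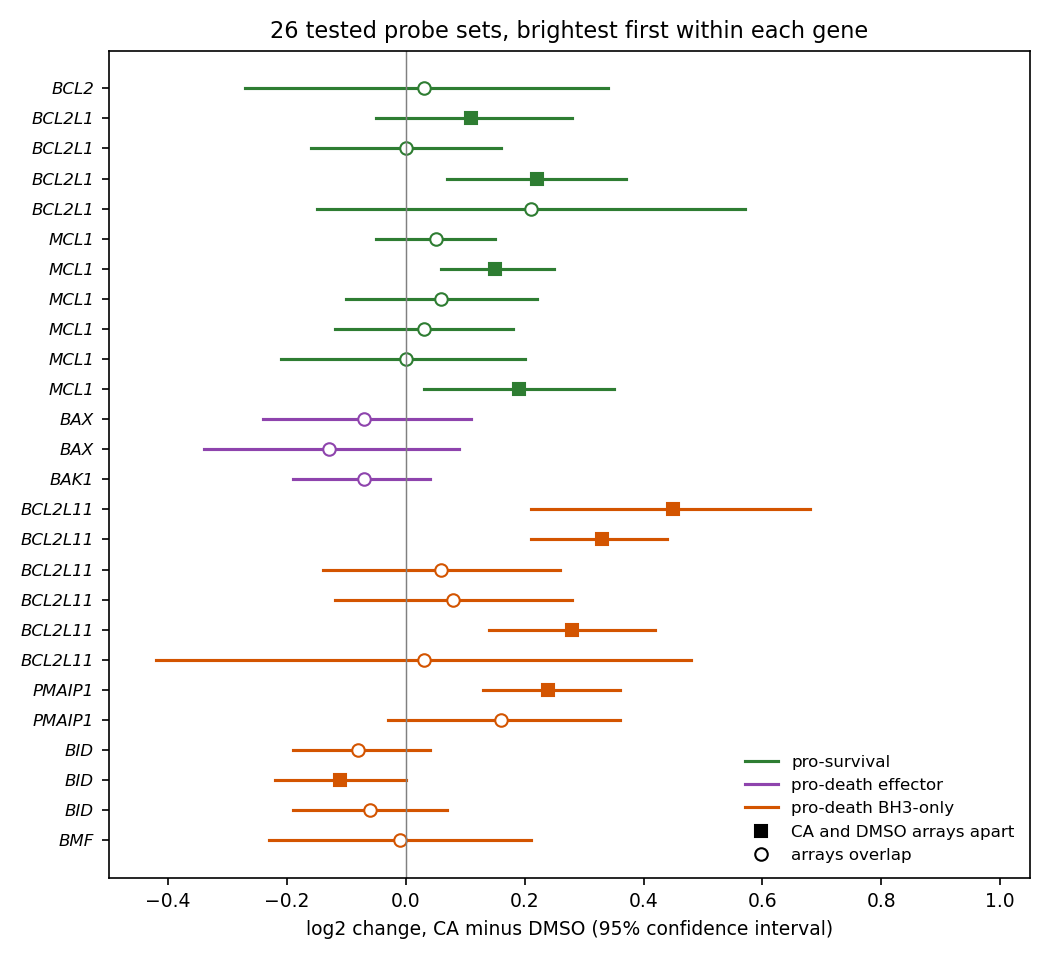
Change in log2 signal, CA minus DMSO, for the 26 tested probe sets of the BCL2 family, grouped by role and with the brightest first within each gene. Lines are 95% confidence intervals, filled squares mark the 9 probe sets whose CA and DMSO arrays do not overlap, and the highest points are those of BCL2L11 at 0.45 and 0.33.

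BCL2L11, which encodes BIM, the BH3-only protein that can engage every pro-survival member and activate BAX, had the largest changes in the family. Probe set 225606_at read 6.68, 6.58 and 6.58 on the CA arrays, against 6.28, 6.31 and 6.28 on the DMSO arrays. The groups did not overlap, and the gap between them was wider than the range within either. The change was 0.33 (0.21 to 0.44), or 1.25-fold, with a limma adjusted p of 0.116. Of all tested probe sets, 0.699% had a change as high. Probe set 1558143_a_at read 6.90, 6.62 and 6.54 with CA, against 6.20, 6.20 and 6.32 with DMSO. Here too the groups lay apart, with CA array 1 the highest, and the change of 0.45 (0.21 to 0.68, 1.36-fold) had a limma adjusted p of 0.279. A dimmer probe set, 222343_at, read 4.68, 4.73 and 4.66 with CA, against 4.45, 4.31 and 4.46 with DMSO, again with no overlap, and its change was 0.28 (0.14 to 0.42, limma adjusted p = 0.242).

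The other BCL2L11 probe sets did not separate the groups. Probe set 1553096_s_at read 6.16, 6.32 and 6.16 with CA, against 6.24, 6.22 and 5.99 with DMSO, and its change was 0.06 (-0.14 to 0.26). For 1553088_a_at the change was 0.08 (-0.12 to 0.28), with CA array 2 at 5.72 and the other 5 arrays between 5.43 and 5.50. For 208536_s_at it was 0.03 (-0.42 to 0.48), a wide interval in which 1 array of each group, at 4.12 with CA and 4.04 with DMSO, stood above the rest. Probe set 1555372_at, too dim to be tested, read 3.70, 3.61 and 3.43 with CA, against 3.48, 3.51 and 3.08 with DMSO, and the groups overlapped. All 6 tested probe sets thus had a fitted change above 0, but only 3 were apart. The platform annotation lists a RefSeq transcript for 3 of the 7 BCL2L11 probe sets, of which 0 were apart, and another GenBank sequence for 4, of which 3 were apart. Over all tested probe sets 15.6% were apart, and the 7 here include 1555372_at, which was not tested. This split was not compared with that of other genes, and which transcript forms each probe set reads was not analysed here.

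**Figure D2:**
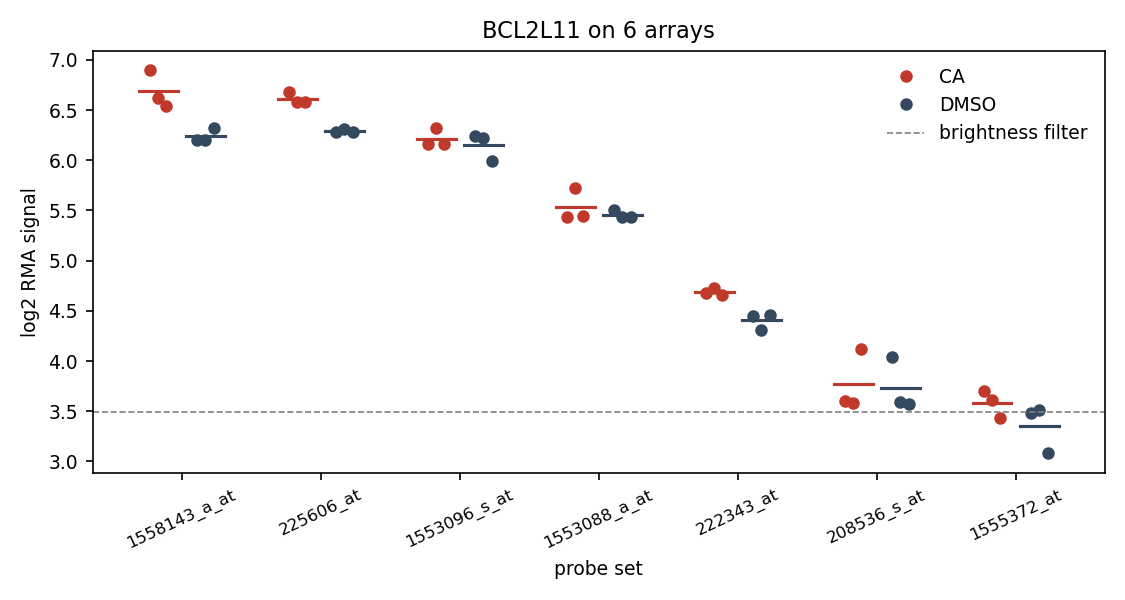
Log2 RMA signal of the 7 BCL2L11 probe sets on each of the 6 arrays, with CA left of DMSO, points for arrays and short lines for group means. The dashed line is the brightness filter at 3.49, and the CA points lie wholly above the DMSO points for 1558143_a_at, 225606_at and 222343_at.

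PMAIP1, which encodes NOXA, a BH3-only protein that binds chiefly MCL1 and promotes its degradation, had 2 probe sets, both with a fitted change above 0. Both are shared probe sets. On 204285_s_at the CA arrays read 8.39, 8.40 and 8.37, against 8.22, 8.09 and 8.13 for DMSO. The CA wells were nearly identical and lay above every DMSO well. The change was 0.24 (0.13 to 0.36), or 1.18-fold, with a limma adjusted p of 0.228. On 204286_s_at the readings were 7.36, 7.20 and 7.08 with CA, against 7.10, 7.09 and 6.97 with DMSO. These overlapped, since CA array 3 lay below DMSO array 1, and the change was 0.16 (-0.03 to 0.36, limma adjusted p = 0.610).

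The promoters of BCL2L11 and PMAIP1 are shown because these were the 2 genes with the largest family changes. Each stretch is the 250 bases before the gene start in RefSeq, build GRCh38.p14, plus strand. Capitals mark matches, on either strand, to 4 motifs: GCGNGGGCG for EGR1, CACGTG for the MYC E-box, GTAAACA for FOXO factors and TTCNNNGAA for STAT5.
BCL2L11, chr2:111120664-111120913: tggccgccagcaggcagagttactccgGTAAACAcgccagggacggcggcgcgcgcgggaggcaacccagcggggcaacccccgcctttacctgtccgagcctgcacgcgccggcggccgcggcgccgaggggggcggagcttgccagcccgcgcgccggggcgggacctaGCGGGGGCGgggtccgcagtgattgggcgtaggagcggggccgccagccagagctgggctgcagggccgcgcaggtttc
PMAIP1, chr18:59899746-59899995: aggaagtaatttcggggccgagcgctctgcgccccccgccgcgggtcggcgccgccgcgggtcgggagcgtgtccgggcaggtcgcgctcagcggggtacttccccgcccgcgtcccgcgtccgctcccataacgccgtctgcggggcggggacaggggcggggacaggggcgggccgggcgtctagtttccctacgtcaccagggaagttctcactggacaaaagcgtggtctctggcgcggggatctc

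The BCL2L11 stretch held 1 match to the EGR1 letters, 79 to 71 bases before the start, and 1 to the FOXO letters, 223 to 217 bases before it. The PMAIP1 stretch held no match to any of the 4, which says only that these letters are not in this window. GC content was 76.8% for BCL2L11 and 72.8% for PMAIP1, against a median of 58.0% over all 35116 RefSeq promoter windows. Of all windows cut to the same 250 bases, 8.41% held the EGR1 letters, 6.34% the E-box, 2.98% the FOXO letters and 6.57% the STAT5 letters. Promoter windows were found for 9 of the 10 genes, MCL1 being the other. Among those 9, the EGR1 and FOXO letters each occurred in 1 gene, BCL2L11. The E-box occurred in 3, BAX, BBC3 and BID, and in BAX 4 times within the window. Counted by window, as the shares over all windows are, it was in 4 of the 15 windows of these genes. The BID matches in different windows were the same bases. The STAT5 letters occurred in 0. A match is a description of the sequence and not a binding site.

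BID, the BH3-only protein that caspase-8 cleaves to link death receptors to the mitochondrion, had lower values with CA on all 3 of its probe sets, at sizes within or near the spread between wells. All 3 had the opposite sign when arrays were scaled to the 3' ends of the control RNAs and kept their sign, at -0.02 to -0.07, when scaled to the 5' ends. On 227143_s_at the CA arrays read 7.83, 7.77 and 7.87, against 7.90, 7.95 and 7.96 for DMSO. The groups were apart by a narrow margin, and the change was -0.11 (-0.22 to 0.00, limma adjusted p = 0.534). The other 2, at -0.08 (-0.19 to 0.04) and -0.06 (-0.19 to 0.07), overlapped between groups. BMF, a BH3-only protein held at the cytoskeleton, had 1 probe set, which read 4.04, 4.20 and 4.27 with CA, against 4.19, 4.03 and 4.31 with DMSO. Its change was -0.01 (-0.23 to 0.21), and the groups overlapped.

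Of the effectors, BAK1 read 6.73, 6.71 and 6.66 with CA, against 6.82, 6.72 and 6.78 with DMSO. CA array 1 lay just above DMSO array 2, and the change was -0.07 (-0.19 to 0.04, limma adjusted p = 0.696). BAX had 2 probe sets. On 211833_s_at the readings were 7.13, 6.92 and 6.87 with CA, against 7.05, 7.03 and 7.04 with DMSO. CA array 1 was the highest of the 6 and the other CA arrays the lowest, and the change was -0.07 (-0.24 to 0.11). On 208478_s_at it was -0.13 (-0.34 to 0.09, limma adjusted p = 0.730), with CA array 2 at 5.88 and the other 5 arrays between 6.10 and 6.25. None of the 3 effector probe sets was apart or at an unadjusted p under 0.05.

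MCL1, the short-lived pro-survival protein to which NOXA and BIM bind, had 6 tested probe sets, none called and 2 apart. On 200797_s_at, the brightest, the CA arrays read 10.66, 10.60 and 10.65, against 10.62, 10.57 and 10.56 for DMSO. These overlapped, and the change was 0.05 (-0.05 to 0.15). On 200798_x_at they read 9.38, 9.42 and 9.37 with CA, against 9.26, 9.24 and 9.22 with DMSO. The groups were apart with little spread in either, and the change was 0.15 (0.06 to 0.25), or 1.11-fold, with a limma adjusted p of 0.341. The dim probe set 227175_at, just above the filter, read 3.69, 3.59 and 3.66 with CA, against 3.53, 3.52 and 3.33 with DMSO, and its change was 0.19 (0.03 to 0.35, limma adjusted p = 0.459). It too was apart. The other 3 were at 0.06 (-0.10 to 0.22) on 214057_at, 0.03 (-0.12 to 0.18) on 214056_at and 0.00 (-0.21 to 0.20) on 200796_s_at, with overlapping groups.

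BCL2L1, which encodes BCL-XL, had 4 tested probe sets, with 2 apart. On 212312_at, the brightest, the CA arrays read 7.92, 7.68 and 7.73, against 7.67, 7.66 and 7.66 for DMSO. The DMSO wells were almost equal, and the separation from CA array 2 was only in the second decimal. The change was 0.11 (-0.05 to 0.28, limma adjusted p = 0.674). On 215037_s_at the readings were 4.83, 4.78 and 4.95 with CA, against 4.59, 4.72 and 4.59 with DMSO. The groups did not overlap, and the change was 0.22 (0.07 to 0.37, limma adjusted p = 0.367). On 206665_s_at it was 0.21 (-0.15 to 0.57) and on 231228_at 0.00 (-0.16 to 0.16), both overlapping.

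BCL2 itself, the founding member of the family, was dim on 3 of its 4 probe sets. Its only tested probe set, 207004_at, read 5.18, 5.29 and 5.15 with CA, against 4.88, 5.27 and 5.36 with DMSO, and the change was 0.03 (-0.27 to 0.34). DMSO array 1 was the lowest, and the interval includes a change of the size measured for PMAIP1. The other 3 probe sets were too dim to be tested, averaging 3.19, 3.22 and 2.25 with CA and 3.29, 3.18 and 2.33 with DMSO, and all overlapped.

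**Figure D3:**
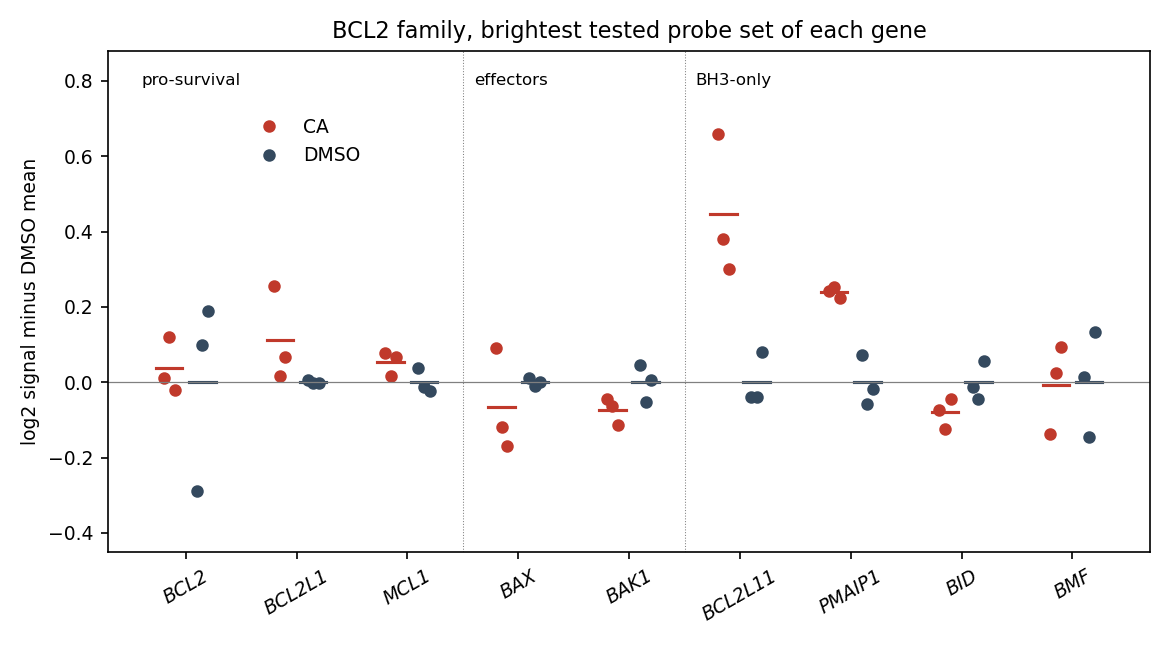
Log2 signal on each array minus the DMSO mean, for the brightest tested probe set of each of the 9 measured genes. Points are arrays, short lines group means, with CA left of DMSO, and the groups lie apart for BCL2L11, PMAIP1 and, by a narrow margin, BCL2L1.

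Set against each other, the pro-survival and pro-death members had nearly the same average change, 0.07 and 0.08. With each gene read by its brightest tested probe set, the 3 pro-survival genes averaged 0.11, 0.05 and 0.04 above the DMSO mean on the CA arrays, and -0.08, 0.03 and 0.06 on the DMSO arrays. The 6 measured pro-death genes averaged 0.13, 0.06 and 0.05 on the CA arrays, and 0.02, -0.06 and 0.04 on the DMSO arrays. The pro-survival average was highest on CA array 1 but overlapped between the groups, as DMSO array 3 lay above CA arrays 2 and 3. The pro-death average was above every DMSO array on the CA arrays, by a narrow margin (0.0491 on CA array 3, against 0.0429 on DMSO array 3). The difference, pro-survival minus pro-death, averaged -0.01 ± 0.0025 with CA and 0.00 ± 0.093 with DMSO (SD, n = 3 each), and no p is given because the genes were chosen with earlier results of these data known. Among the pro-death genes the average hid opposite values, BCL2L11 at 0.45 and PMAIP1 at 0.24 against BID, BAX, BAK1 and BMF at -0.08, -0.07, -0.07 and -0.01. By genes, the median change was 0.05 for the 3 pro-survival and -0.04 for the 6 pro-death ones. Over tested probe sets, the median change was 0.06 for the 11 pro-survival ones, 0.07 for the 12 BH3-only ones and -0.07 for the 3 effector ones. It was -0.01 over all tested probe sets.

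**Figure D4:**
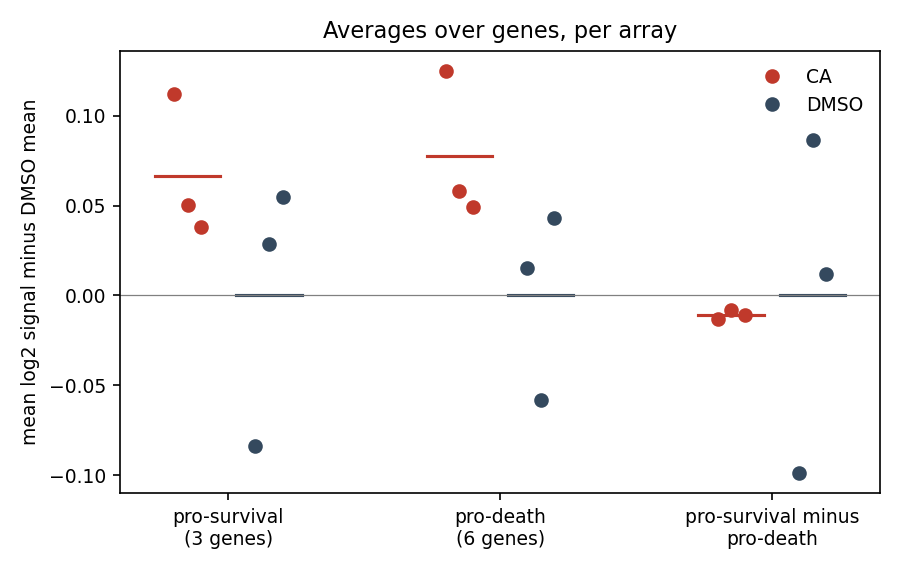
Mean log2 signal minus the DMSO mean per array, averaged over the 3 pro-survival genes, the 6 pro-death genes, and as the difference of both. Points are arrays and short lines group means, and the CA arrays sit close to -0.01 in the difference, inside the range of the DMSO arrays.

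Other genes of the cell death pathway were taken from 9 lists holding 57 genes, of which 48 were tested. Of the 48, 2 were called, against 0.0859% of 12810 genes each read by its brightest tested probe set, and 8 were at an unadjusted p under 0.05, against 8.61%. The lists were chosen with earlier results of these data known, so these counts are no test of the lists. Both called genes were transcription factors: MYC, which sensitises cells to apoptosis, was higher at 0.50 (limma adjusted p = 0.0235) and EGR1, an immediate early factor, was lower at -1.80 (limma adjusted p = 0.0152). FOXO3, the forkhead factor known to activate BCL2L11, averaged 8.25 ± 0.0849 with CA and 7.98 ± 0.0173 with DMSO (SD, n = 3 each). The groups were apart on 3 of its 4 tested probe sets, this one included, where 15.6% of all tested probe sets were apart. The change was 0.27 (0.14 to 0.40, limma adjusted p = 0.237). DDIT3, which encodes the stress factor CHOP, read 7.43, 7.25 and 7.32 with CA, against 7.72, 7.71 and 7.60 with DMSO. Its groups were apart on the lower side, at -0.34 (-0.49 to -0.19, limma adjusted p = 0.193). With the variance trend, FOXO3 (adjusted p = 0.0116) and DDIT3 (0.00757) were called. With each array left out, the change of MYC stayed at 0.49 to 0.51 and that of EGR1 at -1.89 to -1.68. The call of MYC was lost in all 6 of these fits (limma adjusted p of 0.0916 to 0.198) and that of EGR1 in 4, at up to 0.149 (without DMSO array 2). STAT5A and STAT5B had changes of 0.01 (-0.09 to 0.11) and 0.02 (-0.07 to 0.11). Whether any of these factors acted on BCL2L11 or other family genes here was not tested.

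Downstream of the mitochondrion, 0 of 7 tested caspase and apoptosome genes were called. APAF1, the scaffold that cytochrome c assembles into the apoptosome, read 6.46, 6.33 and 6.31 with CA, against 6.65, 6.69 and 6.65 with DMSO. The groups were apart, and the change was -0.30 (-0.43 to -0.17, limma adjusted p = 0.187), whereas its other tested probe set had -0.01. The first was called with the variance trend (adjusted p = 0.0338). CASP9, the initiator caspase recruited by APAF1, had -0.15 (-0.25 to -0.05, limma adjusted p = 0.366) on the brighter probe set and 0.10 on the other, both apart but in opposite directions. CYCS, cytochrome c itself, had 0.06 (-0.06 to 0.18). Of the 6 tested death receptor and adaptor genes, also with 0 called, TNFRSF10A, a receptor for the ligand TRAIL, was apart on the higher side on all 3 probe sets, at 0.23 to 0.34 (limma adjusted p of 0.241 to 0.343). Over all tested probe sets, 7.09% were apart on that side. With the variance trend, 2 of the 3 TNFRSF10A probe sets were called (adjusted p of 0.0294 and 0.0444), against 0.659% of all tested called higher. CFLAR, the caspase-8 inhibitor FLIP, had 0.14 (0.04 to 0.24, limma adjusted p = 0.391) on its brightest probe set. Of its 11 tested probe sets, 6 were apart, all higher in CA, and all 6 were shared probe sets. The only tested CFLAR probe set that was not shared overlapped between groups, at -0.05 (-0.21 to 0.11). Changes over the 11 ran from -0.05 to 0.42. FADD, the adaptor of these receptors, had -0.12 (-0.26 to 0.03).

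The remaining lists held 0 called genes and 0 at an unadjusted p under 0.05. Other pro-survival members (2 tested) had a median of 0.02, with BCL2L2, or BCL-W, at 0.00, and other pro-death members (2 tested) had -0.01, with BAD at 0.01. The BNIP proteins (4 tested) lay between -0.12 and -0.02, with BNIP3 at -0.02. Proteins released from mitochondria or forming the outer membrane channel (7 tested) lay between -0.07 and 0.03, with VDAC2, which holds BAK1 at the membrane, at 0.01. Inhibitor of apoptosis genes (4 tested) lay between -0.06 and 0.06, with BIRC5, or survivin, at 0.03. The ubiquitin genes acting on MCL1 and BCL2L11 (5 tested) lay between -0.05 and 0.11, with HUWE1, a ligase for MCL1, at 0.03.

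**Figure D5:**
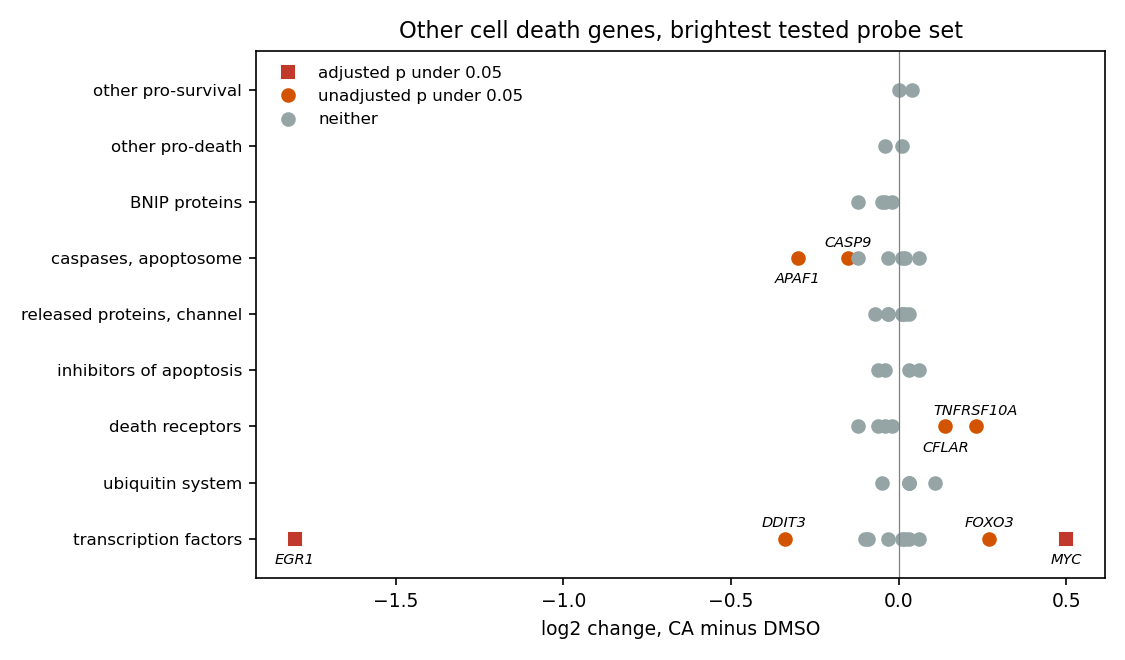
Log2 change, CA minus DMSO, for 48 genes of 9 lists of the cell death pathway, each read by its brightest tested probe set. Squares mark the called genes MYC (0.50) and EGR1 (-1.80), coloured circles the genes at an unadjusted p under 0.05, and grey circles the rest.

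Several measures of the arrays bear on these values. The actin control, a measure of how far labelling ran from the 3' end, had a 3' minus 5' log2 signal of 1.14, 1.18 and 1.31 with CA, against 1.45, 1.49 and 1.40 with DMSO, and so it separated the groups as well. With this ratio as a covariate, an alternative chosen after seeing the data, the change was 0.25 for BCL2L11 on 225606_at, 0.05 on 1558143_a_at and 0.16 on 222343_at, and 0.20 for PMAIP1 on 204285_s_at. The limma unadjusted p-values in that fit were 0.0676, 0.759, 0.26 and 0.132, in the same order. One library, CA array 1, lay away from the other 5 on a principal component holding 24.4% of the variance, and without it these 4 changes were 0.29, 0.34, 0.28 and 0.24. Scaling to the 3' ends of the added polyadenylated control RNAs would add 0.20 to every change and bring the median of all tested probe sets to 0.19, and the values of BID, BAX, BAK1 and BMF would then have the opposite sign. Scaling to the 5' ends of the same controls would add 0.04, and the values of BID, BAX and BAK1 would keep their sign, whereas that of BMF would be 0.04. Of 8 K562 markers, 5 were measured and all 5 were bright enough to be tested, among them the embryonic globin gene HBZ at 12.04 and GATA1 at 8.40. Of 9 markers of other cells, 8 were measured. CD14, MS4A1 and ALB were below the filter and CD3E and KRT5 just above it, but CD3D (9.07), EPCAM (10.46) and COL1A1 (6.94) were not dim. The summed log2 signal of these 8 ran from 41.1 to 41.7 with CA and from 40.8 to 41.5 with DMSO, and 0 of them were called.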

How the data were processed

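The authors deposited a table of log2 signals, 54675 probe sets by 6 arrays, made by RMA in the affy package per the submitters' processing notes, with no version given. RMA corrects background, equalises the distributions of the arrays and summarises the probes of a set, which hides a shift common to most transcripts and shrinks small changes of dim probe sets. Per the labels' protocols, 100 ng of total RNA was labelled with a 3' IVT kit. RNA was isolated with either of 2 kits, and which sample had which is not given in the sources used here.

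The 62 control probe sets were left out of the tests. CA was compared with DMSO with limma 3.58.1 under R 4.3.3 (lmFit, then eBayes; 2-sided, without a block), and the fit was tested on simulated data. The number of arrays limits the precision. Symbols came from the platform annotation. All members were named on all their probe sets, and from each other list the called genes, those at an unadjusted p under 0.05 and the brightest. The members and lists were chosen with earlier results of these data known. Of the 57 list genes, 5 had no probe set with their symbol alone and 4 were too dim, and these are not analysed here. Promoter sequences are from RefSeq (GRCh38.p14). Alternatives covered the variance model, the replicate number as a block, the filter, scaling, array weights, shared probe sets and each array left out.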

Additional observations from a re-analysis of the deposited data

How the results depend on the processing

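The 26 probe sets called over the whole table became 285 with a variance trend, 162 with the filter at the 75th percentile, 3691 with 3' control scaling, 5 with no filter, 1 without shared probe sets, 0 with the replicate block, 0 with the actin covariate (added after seeing the data), and 2 to 5 with an array left out. Unadjusted p under 0.05 then held for 2485 probe sets with the block and 1792 with the covariate. The 0 called of 26 BCL2 family probe sets became 4 with the trend, against 1.04% of all tested. With 3' control scaling 9 of 26 were called, all higher, where 3675 of all 27307 tested were called higher. The filter at the 75th percentile left 17 family probe sets, of which 2 were called (BCL2L11 on 225606_at and PMAIP1 on 204285_s_at), against 162 of all 13654 tested. The family count was 0 under the other alternatives run, each array left out included. The pro-survival minus pro-death difference stayed within -0.06 to 0.04 under all of them. This lay within the range of the DMSO wells (-0.0989 to 0.0867) but was wider than that of the CA wells (-0.0129 to -0.008). With 3' control scaling, 9 of 26 family changes changed sign, as did 3 with 5' control scaling, 9 with the actin covariate and 0 with the trend, block or centring. Among changes whose 95% interval had excluded 0, those of BID on 227143_s_at (0.08) and CASP9 (0.05) changed sign with 3' control scaling, whereas APAF1 (-0.10), DDIT3 (-0.15) and EGR1 (-1.61) stayed lower in CA. No pairing of wells by replicate number was seen, though 3 wells a group cannot show that there was none. Deviations of same-numbered wells correlated at -0.07, 0.01 and 0.06, and not every well correlated best with its own number. The lowest family limma adjusted p with the replicate block was 0.442. At 3 arrays a group, the median standard error of 0.066 limits what could be called.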
